A study of Sus scrofa with 12 samples.

Results

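The genes described here are 10 genes of de novo lipogenesis, the making of fatty acids from small precursors, in the liver of Jinhua (JH) and Landrace (LD) pigs. They were chosen by symbol, with SREBF1 as regulator, ACLY, ACSS2 and AACS for acetyl-CoA supply and use, ME1 for NADPH, ACACA and ACACB for the carboxylation of acetyl-CoA, FASN for the synthesis of the chain, ELOVL6 for its elongation and SCD for its desaturation. All 10 symbols were found among the 31694 gene identifiers of the mRNA tables. JH, a native pig of China that lays down much fat, was the group of interest, and LD, a commercial breed kept for lean meat, was labelled as the control. The liver of 3 uncastrated males of each breed was sampled at 70 days of age, with 1 mRNA library per pig and no treatment named in the labels. Feeding state at sampling and kinship among the pigs are not given in the sources used here. The breeds may also differ in rearing, which cannot be told apart from breed in these 6 pigs, and the p-values measure only the spread between the pigs of a breed.

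Liver cells make fatty acids in the cytosol. Citrate that leaves the mitochondria is split by ACLY into acetyl-CoA, and ACSS2 makes acetyl-CoA from acetate. AACS activates acetoacetate, a ketone body, so that its carbon can enter fatty acids and sterols. The carboxylases ACACA and ACACB turn acetyl-CoA into malonyl-CoA, which in the cytosol feeds FASN and at the mitochondrial surface inhibits the entry of fatty acids for oxidation. FASN builds palmitate with NADPH, which ME1 and the pentose phosphate pathway supply. ELOVL6 extends palmitate to stearate, and SCD introduces the double bond that gives oleate and palmitoleate. Most of these genes are known targets of the transcription factor SREBF1, which responds to insulin. In pigs, adipose tissue rather than liver is the main site of fatty acid synthesis.

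Of the 10 genes, 9 had values above 0. SREBF1 was listed at 0 RPKM in each of the 6 libraries. The same was true of 12080 of the 31694 identifiers (38.1%), among them genes that liver cells use, such as SREBF2, the sterol regulator related to SREBF1, APOB, the main protein of liver lipoproteins, and IDH1, a cytosolic source of NADPH. A listed 0 can be a failed estimate, so the level of SREBF1 in these livers is not known from these values. A further gene, ACACB, was too low for the filter of the test, which kept genes reaching 0.5 RPKM in 3 or more libraries. The other 8 genes were tested among 12993 genes. RPKM is the number of reads of a gene scaled to its length and to the reads of the library. Setting different genes side by side therefore depends on the gene lengths used, which were not checked against transcripts.

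The RPKM values were divided by 5744909 to 7914515 reads per library, as recovered from the steps between the values of low genes. Whole reads were recovered for all 9 measured genes. The lengths that went with them ranged from 383 bases for ELOVL6 to 8711 bases for ACACB. ELOVL6 therefore rested on few reads, from 36 in JH2 to 101 in LD2, although its RPKM was high. SCD was covered by 190 reads in JH1 and 10809 reads in LD3, the most of any of the genes in 1 library. The 9 genes together took 196, 266 and 833 of every 1000000 reads in JH1, JH2 and JH3, and 1695, 2166 and 2161 in LD1, LD2 and LD3. No JH pig reached the level of an LD pig in this sum. SCD alone made up 16.9% to 36.4% of these reads in JH and 48.1% to 63.2% in LD.

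**Figure D1:**
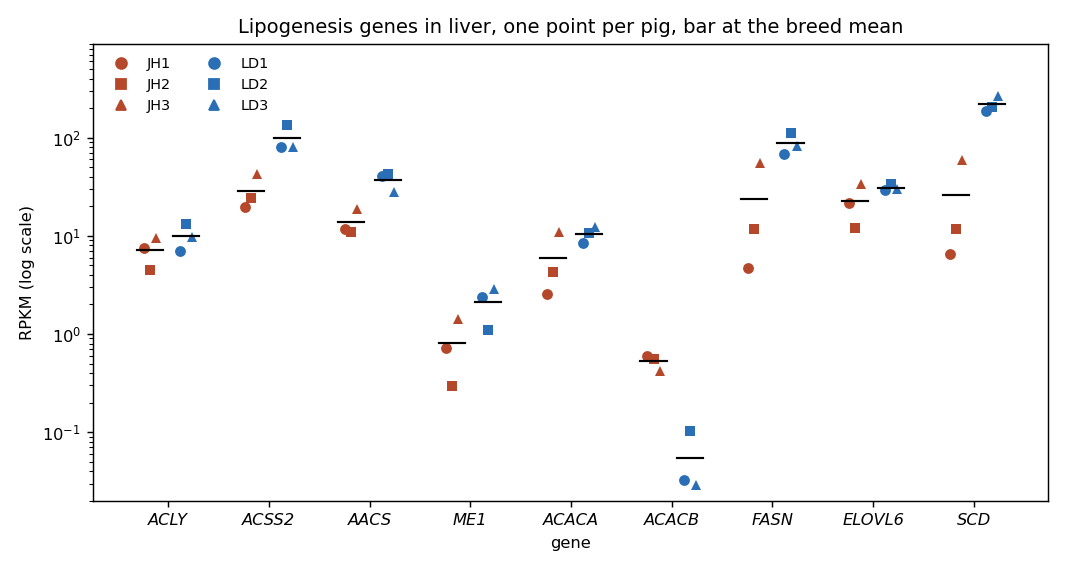
RPKM of the 9 measured lipogenesis genes on a log scale, with 1 point per pig (3 JH and 3 LD) and a bar at the mean of each breed. JH3 is the highest JH pig for every gene but ACACB, and ACACB is the only gene at which the JH points lie above the LD points.

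Of the lipogenesis genes, SCD, ACSS2 and AACS were lower in JH, and no tested one was called higher. The log2 fold change (JH against LD), computed on log2(RPKM + 0.1), was below 0 in all 8 tested genes, as it was in 47.1% of all tested genes. Its median was -1.42 over the 8 genes and 0.04 over all tested genes. A gene was called where its adjusted p was under 0.05 and it changed by more than 1 on the log2 scale in either direction, and by this rule 3 of the 8 genes were called, namely SCD, ACSS2 and AACS, all lower in JH. Of all tested genes 2.39% were called in either direction and 1.36% were called lower in JH. The 3 JH values lay apart from the 3 LD values in 4 of the 8 genes, SCD, FASN, ACSS2 and AACS, against 23.4% of all tested genes. At an unadjusted p under 0.05 with the same fold change limit, FASN and ME1 joined the called genes, which made 5 of 8 against 9.93% of all tested genes. The calls depended on the set of pigs and on the variance model. Without a variance trend 0 of the 8 genes were called, against 1.72% of all tested genes. With each pig left out in turn, the number of called genes was 5 without JH3, 1 without JH1 and 0 without JH2, LD1, LD2 or LD3. The fold changes of the 8 genes stayed below 0 in each of these fits. Over all tested genes the count was 310 with every pig and 406 without JH3. It was 164, 150, 79, 114 and 149 without JH1, JH2, LD1, LD2 and LD3. The loss of calls was thus not confined to the lipogenesis genes.

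**Figure D2:**
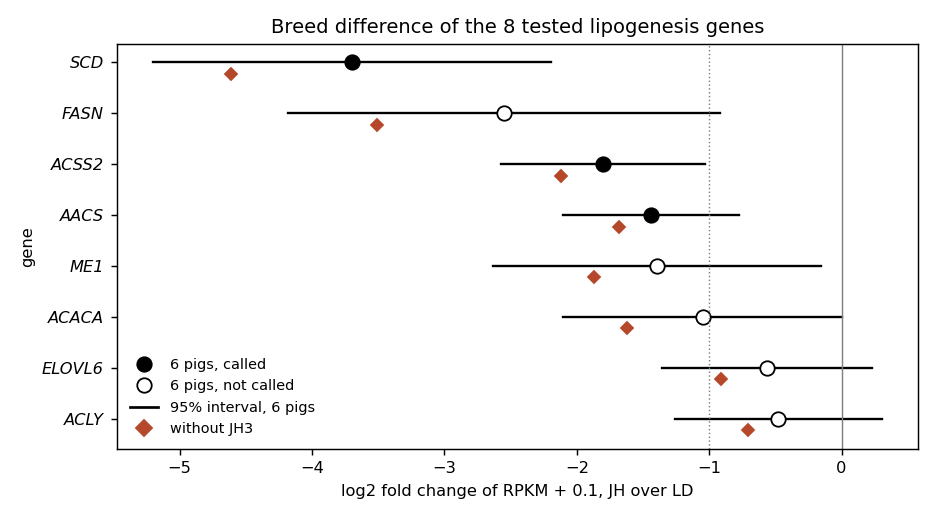
Log2 fold change of JH over LD for the 8 tested lipogenesis genes, on the scale of RPKM + 0.1, with circles for the estimates from 6 pigs (filled where called), lines for their 95% intervals from limma, diamonds for the estimates without JH3 and a dotted line at the fold change limit. All estimates lie left of 0, and each moves further from 0 without JH3.

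Among the genes of acetyl-CoA supply, ACSS2 fell in JH and ACLY did not pass the test. ACSS2 stood at 19.6, 24.5 and 42.2 RPKM in JH1, JH2 and JH3 and at 80.8, 134 and 80.6 RPKM in LD1, LD2 and LD3. The highest JH value was thus below the lowest LD value by a wide margin. The log2 fold change was -1.81 with an SE of 0.34 and a limma adjusted p of 0.0345, and it lay between -2.12 and -1.56 when 1 pig was left out, with a call only in the fit without JH3 (adjusted p = 0.0134, and at most 0.118 in the others). ACLY, the enzyme that splits citrate, was at 7.59, 4.52 and 9.51 RPKM in JH and at 6.93, 13.3 and 9.65 RPKM in LD. The breeds overlapped, with JH1 and JH3 above LD1. Its log2 fold change of -0.48 had a 95% interval from -1.26 to 0.31 and an adjusted p of 0.513 from limma, so the interval holds both no difference and a difference beyond -1.

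AACS, which activates acetoacetate in the cytosol, fell in JH. Its values were 11.7, 10.9 and 18.8 RPKM in JH1, JH2 and JH3 and 40.6, 42.6 and 28.0 RPKM in LD1, LD2 and LD3. LD3, the lowest LD pig, was still above JH3, the highest JH pig. The log2 fold change was -1.44 with an SE of 0.29 and a limma adjusted p of 0.042. With 1 pig left out it lay between -1.68 and -1.30, and AACS was called only in the fit without JH3 (adjusted p = 0.0213, and at most 0.151 in the others).

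ME1, the cytosolic malic enzyme that yields NADPH, was among the lowest of the genes. It was at 0.713, 0.293 and 1.41 RPKM in JH1, JH2 and JH3, which came from 9, 5 and 24 reads. In LD1, LD2 and LD3 it was at 2.37, 1.096 and 2.88 RPKM, from 37, 19 and 50 reads. JH3 was above LD2, so the breeds overlapped. Between the breeds the log2 fold change was -1.39 with an SE of 0.55 and a limma adjusted p of 0.228. It did not pass the threshold, and the pseudocount of 0.1 is not small beside the lowest of these values.

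The carboxylases ACACA and ACACB had breed means that differed in opposite directions. ACACA did not pass the test, and ACACB was below the filter and so was not tested. ACACA, the main carboxylase for fatty acid synthesis, was at 2.55, 4.28 and 11.1 RPKM in JH1, JH2 and JH3 and at 8.43, 10.7 and 12.4 RPKM in LD1, LD2 and LD3. JH3 lay among the LD pigs while JH1 and JH2 lay below all of them. The log2 fold change was -1.05 with an SE of 0.47 and a limma adjusted p of 0.282. Without JH3 it was -1.62 with an adjusted p of 0.0399, and ACACA was then called, as it was in no other fit with 1 pig left out.

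ACACB, whose product at the mitochondria restrains fatty acid oxidation, was the only gene of the 9 with a higher mean in JH. It was at 0.599, 0.562 and 0.415 RPKM in JH1, JH2 and JH3, from 30, 38 and 28 reads. In LD1, LD2 and LD3 it was at 0.0323, 0.102 and 0.029 RPKM, from 2, 7 and 2 reads. Every JH value was above every LD value (two-sided exact permutation test, p = 0.1, which is the lowest value this design of 3 against 3 can give). Summed over the pigs of a breed, 96 reads of 21239245 in JH stood against 11 reads of 22909188 in LD, a ratio of 9.41 with an exact 95% interval from 5.03 to 19.5 that covers counting error only. In a fit with no filter on low values, the log2 fold change of ACACB was 2.04 with an SE of 0.41 and a limma adjusted p of 0.0628, and it was not called. The pseudocount of 0.1 is close to or above every LD value of ACACB, so this fold change understates the ratio of the reads. That fit called 0 of the 9 measured genes and 1.02% of 19614 genes, with adjusted p of 0.0512 for SCD, 0.0501 for ACSS2 and 0.0569 for AACS.

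FASN, the enzyme that builds palmitate, was lower in each JH pig than in each LD pig but did not pass the test. JH1 had 4.71 RPKM, JH2 had 11.6 RPKM and JH3 had 55.3 RPKM. In LD1, LD2 and LD3 it was at 68.9, 111 and 81.9 RPKM. The breeds did not overlap (two-sided exact permutation test, p = 0.1), but JH3 was close to LD1, and JH3 was 11.7 times as high as JH1. JH differed from LD by -2.55 on the log2 scale, with an SE of 0.72, a 95% interval from -4.18 to -0.92 and a limma adjusted p of 0.113. Without JH3 the difference was -3.51 with an SE of 0.40 and a limma adjusted p of 0.00616, and FASN was called in that fit and in no other fit with 1 pig left out.

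ELOVL6, which extends palmitate to stearate, did not pass the test. It was at 21.8, 12.12 and 33.4 RPKM in JH1, JH2 and JH3 and at 29.0, 33.4 and 29.7 RPKM in LD1, LD2 and LD3. JH3 was as high as the highest LD pig. JH differed from LD by -0.57 on the log2 scale, with a 95% interval from -1.36 to 0.23 and a limma adjusted p of 0.444.

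SCD, the desaturase that makes oleate from stearate, had the largest difference of the 8 tested genes and fell in JH. JH1 had 6.48 RPKM, JH2 had 11.8 RPKM and JH3 had 59.3 RPKM. In LD1, LD2 and LD3 it was at 185, 204 and 267 RPKM. The lowest LD pig was thus far above JH3, and JH3 far above the other JH pigs. The log2 fold change was -3.70 with an SE of 0.67 and a limma adjusted p of 0.0301. Only 0.239% of all tested genes had a lower one. That of SCD lay between -4.61 and -3.03 with 1 pig left out. SCD was called without JH3 (adjusted p = 0.000606) and without JH1, and it was not called without JH2, LD1, LD2 or LD3 (adjusted p of at most 0.105).

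The order of the genes by mean RPKM differed between the breeds at the top. The order within a breed depends on the gene lengths used for RPKM. In LD, SCD came first with 219 ± 43.1 RPKM (SD, n = 3), ahead of ACSS2 with 98.5 ± 30.8 RPKM (SD, n = 3) and FASN with 87.4 ± 21.8 RPKM (SD, n = 3). SCD in LD was above ACSS2 in every pig, whereas ACSS2 and FASN overlapped. In JH, ACSS2 came first with 28.8 ± 11.9 RPKM (SD, n = 3), followed by SCD with 25.8 ± 29.1 RPKM (SD, n = 3), FASN with 23.9 ± 27.4 RPKM (SD, n = 3) and ELOVL6 with 22.4 ± 10.7 RPKM (SD, n = 3). These 4 genes overlapped in JH and their order is within the spread between pigs. ME1 and ACACB were the lowest genes in both breeds. ME1 was above ACACB in every LD pig, and in JH their ranges overlapped. Among all tested genes, SCD stood at the 97.5th percentile of the mean log2 level in LD and at the 76.9th percentile in JH.

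JH3 stood apart from JH1 and JH2 in the lipogenesis genes. It was the highest JH pig in all 8 tested genes, which was so in 18.1% of all tested genes. Its value was 6.77 times the mean of JH1 and JH2 for FASN, 6.50 times for SCD and 3.25 times for ACACA, but 1.66 times for AACS and 1.57 times for ACLY. ACACB went the other way, since JH3 was the lowest JH pig with 0.715 times the mean of the other two. The SD of the log2 values among JH pigs was 1.78 for FASN and 1.64 for SCD, larger than in 98.3% and 97.7% of all tested genes. Among LD pigs the SD was 0.35 for FASN and 0.28 for SCD, close to the median of 0.33 over all tested genes. Over the deviations of the 6 pigs from their breed means, the correlation (Pearson) was 0.97 between FASN and SCD, 0.97 between FASN and ACACA and 0.99 between SCD and ACACA, and it was 0.09 between ME1 and ACSS2. These correlations rest on 6 libraries that share their breeds and are a description. For FASN, SCD and ACACA they reflect mainly the distance of JH3 from JH1 and JH2. ACACA, too, had a larger SD among JH pigs (1.05) than among LD pigs (0.28). Among the LD pigs FASN was highest in LD2, while SCD and ACACA were highest in LD3. The library of JH3 also had the highest RPKM of the ribosomal RNA gene RN18S, 62257 RPKM. LD3 came next with 20160 RPKM, and JH2 and LD2 were lowest with 1570 and 2108 RPKM. The part of RN18S in the JH3 values was not tested.

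Without JH3 the breeds differed more. In that fit 5 of the 8 tested genes were called, SCD, FASN, ACSS2, AACS and ACACA, all lower in JH, against 3.12% of all tested genes. The median log2 fold change of the 8 genes was then -1.77, with a median of 0.15 over all tested genes. The mean RPKM of LD was 24.0 times that of JH1 and JH2 for SCD and 10.7 times for FASN, whereas with JH3 included the ratio of means was 8.47 and 3.66. For ELOVL6 and ACLY the ratio without JH3 was 1.81 and 1.65. Leaving out JH3 is 1 of 6 such fits, and the labels do not set this pig apart.

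The breed means of the genes did not differ by the same factor, and the ratios between genes within a pig show this pig by pig. The ratio of SCD to FASN was 1.37, 1.01 and 1.07 in JH1, JH2 and JH3 and 2.69, 1.83 and 3.27 in LD1, LD2 and LD3. JH3, with its high levels of both genes, thus had the ratio of the other JH pigs. ACSS2 to ACLY, the acetate route against the citrate route to acetyl-CoA, was 2.58 to 5.43 in JH and 8.35 to 11.6 in LD. FASN to ACACA was 1.85 in JH1 and 2.72 in JH2, higher in JH3, and 6.61 to 10.5 in LD, above all JH pigs. ELOVL6 to SCD, the elongase against the desaturase, was 0.563 to 3.37 in JH and 0.111 to 0.164 in LD. ACACA to ACACB was 4.25 to 26.6 in JH and 105 to 427 in LD, with the LD ratios resting on 2 to 7 reads of ACACB. The ratio of ACSS2 to AACS, with 1.68 to 2.25 in JH and 1.99 to 3.15 in LD, overlapped between the breeds. The 6 pairs were picked with the values known, so their separation is a description and no test was made of it.

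**Figure D3:**
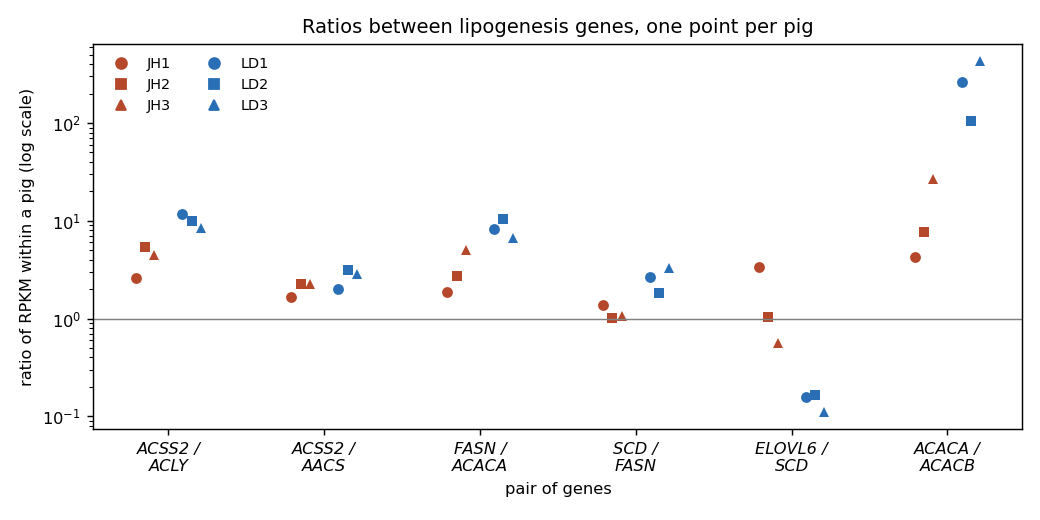
Ratios of RPKM between pairs of lipogenesis genes within each pig, on a log scale, with 1 point per pig. For SCD to FASN the 3 JH pigs sit between 1.01 and 1.37 and the 3 LD pigs between 1.83 and 3.27.

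A wider list of 70 pathway neighbours held regulators, the supply of citrate, pyruvate and glucose carbon, other sources of NADPH, and the handling of acyl chains with triglyceride assembly. Of the 70 genes, 48 were tested, 13 had no row under their symbol, 4 were listed at 0 and 5 were below the filter. PC was called higher and FABP1 lower in JH, 2 of the 48 genes, beside 2.39% called among all tested genes. Their median log2 fold change was -0.01, against -1.42 for the 8 lipogenesis genes.

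Of the 14 tested regulators 0 were called by limma, beside 2.39% of all tested genes. An unadjusted limma p under 0.05 was found for 2 of the 14, beside 2321 of all 12993 tested genes. INSIG1, which holds the SREBF proteins in the endoplasmic reticulum and is itself a target of them, was at 45.7 ± 12.4 RPKM (SD, n = 3) among the JH pigs, against 84.3 ± 33.8 RPKM (SD, n = 3) among the LD pigs, a log2 fold change of -0.83 with an SE of 0.37 and a limma adjusted p of 0.28. SCAP, the escort of the SREBF proteins, had a log2 fold change of 0.25 with an SE of 0.36 and a limma adjusted p of 0.756. MLXIPL, a glucose-responsive activator of lipogenesis, had one of -0.25 with an SE of 0.30 and a limma adjusted p of 0.702, and NR1H3, an oxysterol receptor that induces SREBF1, had one of 0.18 with an SE of 0.26 and a limma adjusted p of 0.757. THRSP, a gene tied to lipogenesis and thyroid hormone, was listed at 0 in all JH libraries and in LD2, and was at 0.566 and 0.381 RPKM in LD1 and LD3. INSIG2, PNPLA3 and GPAM had no row under these symbols.

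Among the genes that supply carbon to lipogenesis, PC was higher in JH and the others did not pass the test. Of these 11 tested genes 4 had a log2 fold change below 0, beside 47.1% of all tested genes, and 1 was called, beside 2.39%. An unadjusted limma p under 0.05 was found for 6 of the 11, beside 2321 of all 12993 tested genes. The median log2 fold change was 0.92, against 0.04 over all tested genes. PC, the mitochondrial pyruvate carboxylase that makes oxaloacetate, was at 618, 406 and 260 RPKM in JH1, JH2 and JH3 and at 63.2, 80.2 and 72.2 RPKM in LD1, LD2 and LD3, so that every JH pig was above every LD pig. Its log2 fold change was 2.49 with an SE of 0.33 and a limma adjusted p of 0.00751, and it was called in all 6 fits with 1 pig left out. SLC25A1, the carrier that exports citrate from mitochondria, was at 242, 219 and 111 RPKM in JH1, JH2 and JH3 and at 106, 117 and 70.7 RPKM in LD1, LD2 and LD3. JH3 was below LD2, and the log2 fold change of 0.92 with an SE of 0.35 and a limma adjusted p of 0.208 did not pass. PKLR, the pyruvate kinase of liver, was at 19.6, 26.2 and 50.2 RPKM in JH1, JH2 and JH3 and at 68.6, 69.1 and 63.2 RPKM in LD1, LD2 and LD3. It was highest in JH3 among the JH pigs, as the lipogenesis genes were, and its log2 fold change was -1.18 with an SE of 0.34 and a limma adjusted p of 0.118. Without JH3 that p was 0.0187, and PKLR was then called.

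Of the 8 tested NADPH genes listed beside ME1, 0 were called by limma, beside the same 2.39%. None of the 8 had an unadjusted limma p under 0.05, beside 2321 of all 12993 tested genes. PGD, a dehydrogenase of the pentose phosphate pathway, had a log2 fold change of -0.17 with an SE of 0.28 and a limma adjusted p of 0.792. Of 15 tested genes of acyl chains and triglyceride assembly 3 had an unadjusted limma p under 0.05 and 1 was called. This was FABP1, the abundant fatty acid binding protein of liver, with 237, 847 and 889 RPKM in JH1, JH2 and JH3 and 2224, 3482 and 3364 RPKM in LD1, LD2 and LD3. All JH values were below all LD values, and the log2 fold change was -2.40 with an SE of 0.49 and a limma adjusted p of 0.0416. FABP1 kept its call without JH1 or JH3 and lost it without JH2, LD1, LD2 or LD3 (limma adjusted p of 0.0577 to 0.141), and its log2 fold change lay between -2.73 and -1.77 in these 6 fits. After scaling to a common median its limma adjusted p was 0.0527. DGAT2, which adds the last acyl chain of triglyceride, had a log2 fold change of 0.18 with an SE of 0.36 and a limma adjusted p of 0.834.

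**Figure D4:**
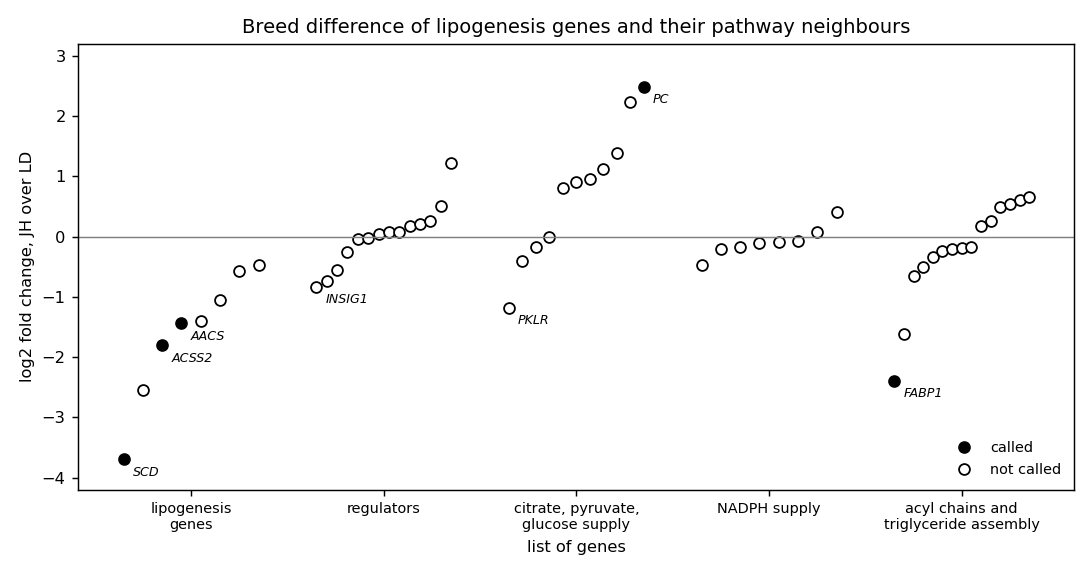
Log2 fold change of JH over LD for the 8 tested lipogenesis genes and for 48 tested pathway neighbours in 4 lists, with 1 circle per gene, sorted within each list, and filled circles for called genes. The lipogenesis genes all lie below 0, from -3.70 to -0.48, while the other lists lie on both sides of 0.

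Each sample was whole liver, so that fewer cells of a type and less RNA per cell cannot be told apart. The summed markers of several other cell types were lower in JH, as the lipogenesis genes were. Of 7 markers of stellate and smooth muscle cells all were tested and 3 were called lower in JH, beside 1.36% of all tested genes, with a summed level of 76.6 to 93.4 RPKM in JH and 191 to 382 RPKM in LD. The sum of 5 endothelial markers was 50.01 to 52.2 RPKM in JH and 72.6 to 78.4 RPKM in LD, with none called. That of 3 bile duct markers was 1.55 to 2.13 RPKM in JH and 5.24 to 9.64 RPKM in LD, and 1 of the 2 tested was called lower in JH. Of the 2 tested red cell markers HBB was called lower in JH, and the sum of the list, nearly all of it HBB, was 90.2 to 122 RPKM in JH and 213 to 393 RPKM in LD. JH3, the JH pig with the highest lipogenesis values, had the lowest stellate and bile duct sums and the highest red cell sum of the 3 JH pigs. Hepatocyte markers had a sum of 42060 to 47166 RPKM in JH and 60709 to 77527 RPKM in LD, with 0 of 6 called. Most of this sum was ALB, at 27533 to 33599 RPKM in JH and 37742 to 53893 RPKM in LD. The log2 fold change was -1.13 for TF, -0.67 for ALB and -0.40 for CPS1. It was -0.28 for SERPINC1, -0.17 for TTR and 0.22 for HNF4A. The sums overlapped between the breeds for macrophage markers, at 196 to 442 RPKM in JH and 367 to 574 RPKM in LD, most of it CD14, and for lymphocyte markers, at 23.5 to 94.3 RPKM in JH and 30.7 to 37.2 RPKM in LD. The part of these cell types in the lipogenesis result was not tested. Fat cells also express the lipogenesis genes. Of their markers, LEP and CIDEA were listed at 0 in every library, ADIPOQ was listed at 0 in 5 libraries and at 0.214 RPKM in LD3, PLIN1 was at 0.259 to 2.33 RPKM and CIDEC at 3.86 to 11.99 RPKM. The sum of the adipocyte markers was 5.06 to 13.7 RPKM in JH and 5.17 to 8.93 RPKM in LD, and JH3 had the lowest sum of the 6 pigs.

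The genes most like the 8 lipogenesis genes across the 6 libraries were sought by the correlation of log2(RPKM + 0.1) with the mean z-score of the 8 genes. This mean was -1.01, -1.24 and 0.24 in JH1, JH2 and JH3 and 0.49, 0.84 and 0.69 in LD1, LD2 and LD3. The 5 highest were LOC100152572, LOC102160733, LOC102158932, LOC102161964 and LOC100738923, with correlations (Pearson) between 0.992 and 0.995 over 6 libraries. Of these identifiers 1 matched the RefSeq table, LOC100152572, which is MAP3K20 there. It was at 1.24, 1.23 and 2.65 RPKM in JH1, JH2 and JH3 and at 2.97, 3.58 and 3.04 RPKM in LD1, LD2 and LD3. All 5 were low genes, at most 3.58 RPKM, with JH3 above the other JH pigs, and none of them was called between the breeds. Among the 8 genes themselves, the correlation with the mean ranged from 0.78 for ACLY to 0.96 for SCD. Each of the 8 is part of that mean, which raises its correlation, so these values do not compare with those of outside genes.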

How the data were processed

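The deposited mRNA values are RPKM, 1 column per library, which the authors made from filtered single reads of 50 bases. Alignment was to build 10.2 of the pig genome with TopHat2 2.0.13, and gfold 1.1.2 counted the reads of each gene. The tables hold no coordinates. The small RNA libraries of the same pigs were not used here. Samples were grouped by their public titles.

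The breeds were compared with limma 3.58.1 under R 4.3.3, using moderated statistics with a variance trend (lmFit, eBayes). Values entered as log2(RPKM + 0.1), and the 12993 genes that reached 0.5 RPKM in 3 or more libraries were tested. A call needed a p under 0.05 after Benjamini-Hochberg adjustment over all of these genes and a difference beyond 1 on the log2 scale. The study tested genes with DEGseq, a test for counts, which was not repeated here because the values are RPKM. The members and the gene lists were chosen with earlier results of these data known. Named neighbours are all called ones and 16 picked by role, of which some are not reported here, and a gene named outside these was picked after its values were seen.

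Read totals were recovered from the values of low genes, and the reads of a gene from the shortest length that made its 6 values whole within at most 0.04 reads. On simulated data 397 of 400 genes were resolved, 370 of them exactly, and totals were within 2 reads. The limma step was tested on simulated data of 12562 genes with 200 changed by 2 on the log2 scale. It called 156, of which 146 were changed ones. The simulation drew genes independently and gave both breeds the same spread per gene. It therefore did not cover unequal spreads such as those of FASN and SCD. Python 3.11.15, pandas 2.3.3, numpy 2.4.6, scipy 1.17.1 and matplotlib 3.10.9 were used. The alternatives were other pseudocounts, no filter, quantile normalization, median scaling, no variance trend, no fold change limit, unadjusted p, the replicate number as a block and each pig left out in turn.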

Additional observations from a re-analysis of the deposited data

How the results depend on the processing

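The count of 3 called lipogenesis genes was 0 with no filter on low values, 0 with no variance trend and 5 at unadjusted p, and ranged from 0 to 5 with 1 pig left out. Over all tested genes the count of 310 was 199 with a pseudocount of 0.01, 200 with no filter, 223 with no variance trend and 1290 at unadjusted p, and ranged from 79 to 406 with 1 pig left out. Among the pathway neighbours the count of 2 was 1 with a pseudocount of 0.01, with no filter and with no variance trend, was 7 at unadjusted p, and ranged from 1 to 5 with 1 pig left out. Each fit with 1 pig left out has fewer samples, and the cause of the other moves was not tested. The 8 tested lipogenesis genes and 9 settings that kept all 6 pigs made 72 gene and setting combinations. Of these, 62 kept their side of the threshold, 8 lost a call and 2 gained one. The 62 include uncalled genes that stayed uncalled, and all 8 losses fell on the 3 called genes. SCD and ACSS2 each lost their call with no filter and with no variance trend. AACS lost it in the same settings, with the replicate block and with a pseudocount of 0.01. Unadjusted p and no fold change limit loosen the rule and cannot lose a call. The direction turned in 0 of the 72 and in 0 of the fits with 1 pig left out. Among the uncalled neighbours the log2 fold change of NR1H3 was -0.019 with quantile normalization, and with 1 pig left out the direction turned for SCAP (-0.044 without LD3, range to 0.58), PGD (0.097 without LD2, range from -0.32) and DGAT2 (-0.26 without JH1, range to 0.42). AACS lost its call with a pseudocount of 0.01 (adjusted p = 0.053 from limma).

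With the replicate number as a block, 2 lipogenesis genes were called and AACS was not (adjusted p = 0.0704 from limma), and 253 genes were called in all. After each breed mean was subtracted, the correlation across genes was taken between the JH and LD pigs with the same number. It was -0.02, 0.05 and 0.18 for numbers 1, 2 and 3. RN18S was highest in JH3 and LD3 and lowest in JH2 and LD2 within their breeds. Whether libraries with the same number were prepared or sequenced together is not given in the labels and was not tested. Depth limits ACACB and ME1, which rest on 2 to 38 and 5 to 50 reads per library.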

Other observations

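Among the 48 tested pathway neighbours, the values of the breeds lay apart in 9 genes, 5 higher and 4 lower in JH, against 23.4% of all tested genes. Beside PC, FABP1 and PKLR these were genes named after their values were seen. TRIB3, a stress-responsive pseudokinase that restrains insulin signalling, was at 15.5 ± 0.689 RPKM (SD, n = 3) among the JH pigs, against 6.91 ± 2.78 RPKM (SD, n = 3) among the LD pigs, a log2 fold change of 1.22 with an SE of 0.30 and a limma adjusted p of 0.0779. MPC2, a subunit of the mitochondrial pyruvate carrier, was at 136 ± 49.1 RPKM (SD, n = 3) among the JH pigs, against 59.2 ± 3.56 RPKM (SD, n = 3) among the LD pigs (limma adjusted p of 0.103). SLC13A5, the citrate importer of the plasma membrane, was at 6.47 ± 3.99 RPKM (SD, n = 3) among the JH pigs, against 2.19 ± 0.61 RPKM (SD, n = 3) among the LD pigs (limma adjusted p of 0.123). MDH1, the cytosolic malate dehydrogenase, was at 134 ± 21.97 RPKM (SD, n = 3) among the JH pigs, against 68.4 ± 7.77 RPKM (SD, n = 3) among the LD pigs (limma adjusted p of 0.0783). ACSL3, an acyl-CoA synthetase of lipid droplets, was at 28.7 ± 15.9 RPKM (SD, n = 3) among the JH pigs, against 80.6 ± 11.1 RPKM (SD, n = 3) among the LD pigs, a log2 fold change of -1.61 with an SE of 0.36 and a limma adjusted p of 0.056, and TKT, a transketolase, had an adjusted p of 0.371. None of these 6 genes was called with all 6 pigs. MPC2 and ACSL3 were called without JH3, MPC2 and TRIB3 after scaling to a common median, ACSL3 with a pseudocount of 1, and these 3 and SLC13A5 at unadjusted p.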
